A study of Saccharomyces cerevisiae with 15 samples.

Results

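The genes considered are those of the mitochondrial respiratory chain and the ATP synthase of baker's yeast, Saccharomyces cerevisiae. They were chosen by name from the annotation of the array: every QCR, COX, ATP or SDH gene symbol followed by a number, together with CYT1, COR1, RIP1, CYC1 and CYC7. This gave 57 of the 5449 genes measured, each read by 1 probe set. Of these, 37 encode subunits of the complexes and 20 encode assembly factors. The subunits divide into 4 of complex II, 9 of complex III, 2 forms of cytochrome c, 9 of complex IV and 13 of the ATP synthase, and the assembly factors into 4, 10 and 6 for complexes II and IV and the ATP synthase. SDH9 and the genes carried on mitochondrial DNA were not analysed here.

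In respiring yeast, complex II (succinate dehydrogenase) and the NADH dehydrogenases pass electrons to ubiquinone, complex III (cytochrome bc1) passes them on to cytochrome c, and complex IV (cytochrome c oxidase) gives them to oxygen. The proton gradient built on the way drives the ATP synthase. Most of these subunits are encoded in the nucleus, and their transcripts are known to be low on glucose, to rise on sugars that repress less, and to depend on the haem-dependent activators Hap1 and Hap2/3/4/5. Subunit V of complex IV and cytochrome c each exist as a form used in air, encoded by COX5A and CYC1, and a form used at low oxygen, encoded by COX5B and CYC7.

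All cells were of strain YPH499 and carried pEG(KG), a plasmid whose insert is under the GAL1 promoter, which galactose switches on. The IRAK4 cells expressed human IRAK4, a kinase of innate immune signalling, and the IRAK4(KD) cells its catalytically inactive form. IRAK1 cells expressed human IRAK1 and IRAK2 cells expressed human IRAK2, both relatives of IRAK4, while Control cells carried the plasmid with no insert. Cultures of all 5 groups grew for 18 h at 30 °C on raffinose, were set to an optical density of 0.3 on galactose and were collected after 6 h, so the Control cells went through the same change of sugar. Each group had 3 biological replicates, 1 array each, and the labels do not say whether these were separate cultures or grown side by side, so p-values measure the spread between these arrays, part of which may be technical.

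Values are log2 array intensities, and differences are the first group named minus the second on that scale, with the standard error (SE) of the fit. A gene was called at a Benjamini-Hochberg adjusted p under 0.05 in limma over all 5449 genes. Array medians lay between 8.72 and 8.87, and replicates correlated at 0.993 or more over all genes, apart from IRAK1, where the lowest correlation was 0.968. Once the remaining IRAK1 arrays were averaged, IRAK1 replicate 1 differed from that average by more than 1 log2 unit in 234 genes, none among the 57. Values with and without IRAK1 replicate 1 are therefore given below. Within the 57 it was above both other IRAK1 arrays in 44 genes and below both in 8, counts not taken over all genes. The array carries 0 probe sets for human IRAK genes, so the kinase transcripts themselves were not read. Because the RNA came from whole cultures, fewer cells expressing a gene and less RNA per cell cannot be told apart.

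Most respiratory genes had their lowest values in IRAK1 cells, while in IRAK4, IRAK4(KD) and IRAK2 cells their median differences from Control were small and positive, at 0.16, 0.21 and 0.07. In IRAK1 against Control, 41 of the 57 genes were called lower and 4 higher, which is 71.9% and 7.02% of them, against 28.2% and 30.6% of all genes. The median difference of the 57 was -0.39, against 0.02 over all genes. When each array was left out in turn, 36 of the 45 calls held. Under every alternative apart from the 2-fold limit, 28 of the 45 held, 4 higher and 24 lower. These alternatives included the IRAK1 and Control arrays alone, with and without pairing by replicate number. The IRAK1 group mean was the lowest of the 5 group means in 43 of the 57 genes, or 75.4%, against 34.5% of all genes. Values of the IRAK1 and Control arrays did not overlap in 40 of the 57 genes, or 70.2%, against 60.4% of all genes. Without IRAK1 replicate 1, 43 genes were called lower and 5 higher, against 30.8% and 30.1% of all genes, and the median difference was -0.50. The map of differences by gene shows the IRAK1 column as mostly negative, in 45 of the 57 genes.

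**Figure D1:**
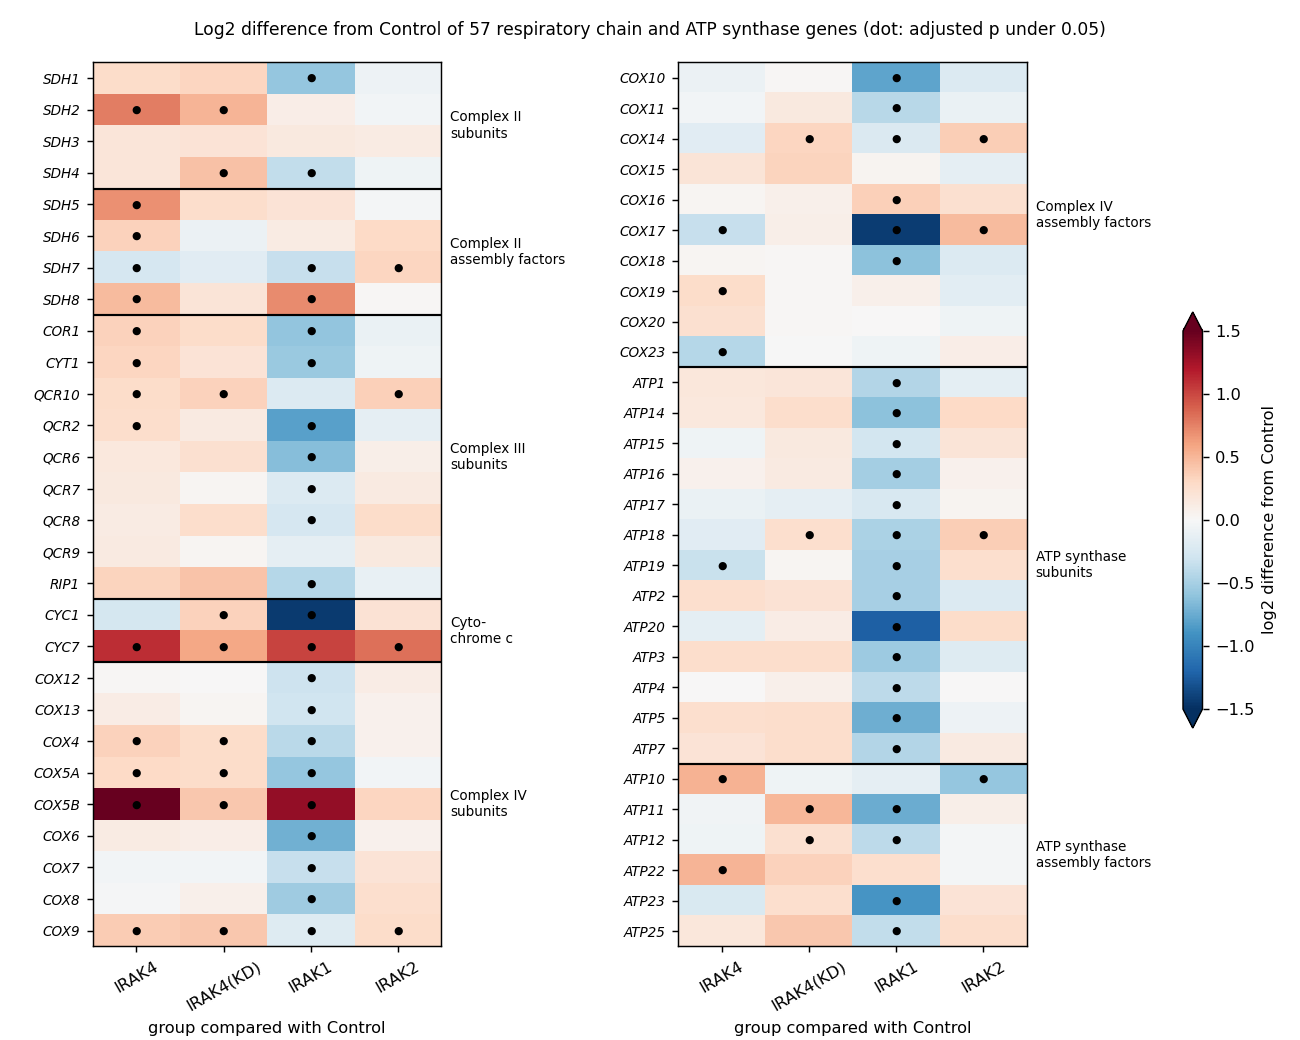
Each row is 1 of the 57 genes, grouped by complex, and each column 1 comparison with Control; colour gives the log2 difference (red higher, blue lower, scale ends at ±1.5) and a dot marks an adjusted p under 0.05. The IRAK1 column has 41 genes called lower, and the exceptions called higher are COX5B, CYC7, SDH8 and COX16.

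**Figure D2:**
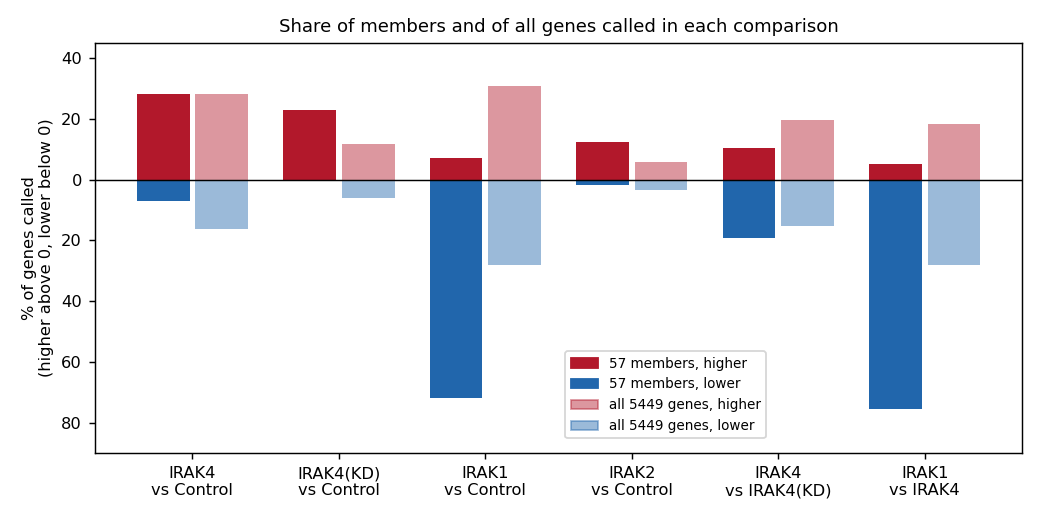
Bars give the percentage of genes called higher (above 0, red) and lower (below 0, blue) in each of 6 comparisons, for the 57 genes (dark) and for all 5449 genes (pale). The blue bars of the 57 genes reach 71.9% in IRAK1 against Control and 75.4% in IRAK1 against IRAK4, beyond the 28.2% and 28.0% of all genes.

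Complex II, which is at once an enzyme of the citric acid cycle, was the least changed complex by median in IRAK1 cells, with 2 of its 4 subunits called lower and a median difference of -0.14. SDH1 (YKL148C), the flavoprotein subunit that oxidises succinate, had values of 11.68, 10.90 and 10.81 on the IRAK1 arrays, against 11.85, 11.72 and 11.54 on the Control arrays. The groups overlapped through IRAK1 replicate 1. Its difference of -0.58 ± 0.17 had an adjusted p of 0.00955 in limma, and without that array it was -0.85. The membrane anchor gene SDH4 (YDR178W) had values of 11.43, 11.02 and 10.97 in IRAK1, against 11.61, 11.58 and 11.36 in Control, again overlapping through replicate 1. Its difference of -0.37 ± 0.12 (adjusted p = 0.0154, limma) lost its call when Control replicate 1, Control replicate 2, IRAK1 replicate 2 or IRAK1 replicate 3 was left out, with differences of -0.33, -0.34, -0.32 and -0.29. SDH2, the iron-sulfur subunit, and SDH3, which holds the haem b of the complex, were not called, with differences of 0.10 ± 0.10 and 0.15 ± 0.09. After quantile normalization SDH3 was called higher, at 0.19 (adjusted p = 0.0369, limma), while SDH1 and SDH4 were lower. With the 6 IRAK1 and Control arrays alone and no pairing, SDH1 and SDH4 were not called, at limma adjusted p-values of 0.0755 and 0.0734. The median of the 4 subunits was -0.24 without IRAK1 replicate 1.

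Complex III subunits were mostly lower in IRAK1 cells, with 7 of 9 called lower, 0 higher (also 0 at an unadjusted limma p under 0.05), and a median difference of -0.43. Those called lower were 77.8%, against 28.2% of all genes. QCR2 (YPR191W), the second core subunit, had values of 11.41, 11.17 and 11.18 in IRAK1, against 12.07, 12.09 and 12.05 in Control. All 3 IRAK1 arrays lay below all 3 Control arrays, and the difference was -0.82 ± 0.08 (adjusted p = 9.10e-07, limma). The other core subunit gene COR1 differed by -0.59 ± 0.11, CYT1 for cytochrome c1 by -0.56 ± 0.09 and QCR6 for the acidic hinge subunit by -0.64 ± 0.10, each with no overlap between the groups. RIP1 (YEL024W), the Rieske iron-sulfur protein, had values of 11.92, 11.10 and 11.18 in IRAK1, against 11.96, 11.83 and 11.70 in Control. Here IRAK1 replicate 1 sat among the Control arrays. The difference of -0.43 ± 0.16 was -0.69 without that array, and the call was lost without Control replicate 1 or 2 or IRAK1 replicate 2 or 3, at -0.36, -0.43, -0.28 and -0.32. The small subunit genes QCR9 and QCR10 were not called, at -0.14 ± 0.09 and -0.20 ± 0.10, and became called without IRAK1 replicate 1, at -0.24 and -0.26. That array also moved the median of the complex by over 1.5 times, to -0.67 without it, and leaving out IRAK1 replicate 2 gave -0.28. With the 6 IRAK1 and Control arrays paired by replicate number, QCR7, QCR8 and RIP1 were not called, at limma adjusted p-values of 0.10, 0.0812 and 0.0712.

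Cytochrome c carries electrons between complexes III and IV, and its isoform genes went in opposite directions in IRAK1 cells. CYC1 (YJR048W), for iso-1-cytochrome c, had values of 11.10, 10.58 and 10.68 in IRAK1, against 12.37, 12.17 and 12.15 in Control. The IRAK1 arrays were all lower than every array of the other 4 groups, and the difference from Control of -1.44 ± 0.11, a 2.72-fold lower signal, was the lowest among the 57 genes (adjusted p = 1.03e-07, limma). It was -1.60 without IRAK1 replicate 1. CYC7 (YEL039C), for iso-2-cytochrome c, had values of 10.29, 10.58 and 10.59 in IRAK1, against 9.77, 9.51 and 9.14 in Control. No arrays overlapped, and the difference was 1.01 ± 0.15, or 2.02-fold (adjusted p = 5.20e-05, limma).

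Complex IV showed the same split between isoforms. Of its 9 subunit genes chosen by name, 8 were called lower in IRAK1 than in Control and 1, COX5B, higher. These were 88.9% and 11.1%, against 28.2% and 30.6% of all genes. The aerobic isoform gene COX5A (YNL052W) had values of 12.11, 11.87 and 12.06 in IRAK1, against 12.58, 12.59 and 12.61 in Control. The hypoxic isoform gene COX5B (YIL111W) had values of 7.97, 8.59 and 8.40 in IRAK1, against 6.88, 7.00 and 7.12 in Control. Neither gene overlapped between the groups. The differences were -0.58 ± 0.08 for COX5A (adjusted p = 3.61e-05) and 1.32 ± 0.13 for COX5B (adjusted p = 9.71e-07), both in limma, and COX5B stood at 1.50 without IRAK1 replicate 1. COX6, a nuclear subunit required for the assembled enzyme, differed by -0.72 ± 0.09, and the remaining 6 subunits ranged from COX8 at -0.53 to COX9 at -0.19. The COX9 call was lost without 5 of the 6 arrays of these groups, at -0.13 to -0.20, and with the replicate number as a block, at limma adjusted p-values of 0.0558 over 15 arrays and 0.160 over the 6 arrays. With those 6 arrays alone and no pairing, COX9 and COX12 were not called, at limma adjusted p-values of 0.153 and 0.0572.

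All 13 ATP synthase subunit genes chosen by name were called lower in IRAK1 than in Control, against 28.2% of all genes. The median difference of the 13 was -0.50, with a range of -1.22 to -0.24. ATP20 (YPR020W), for subunit g, a membrane subunit that helps the enzyme pair into dimers, had values of 10.92, 10.82 and 10.90 in IRAK1, against 12.23, 11.98 and 12.09 in Control. The IRAK1 arrays lay over 1 unit below the Control arrays, and the difference of -1.22 ± 0.09 was 2.33-fold (adjusted p = 4.77e-08, limma). The catalytic head and its stalk gave less even values. ATP5 (YDR298C), for the stalk subunit OSCP, had values of 12.00, 11.16 and 11.04 in IRAK1, against 12.26, 12.12 and 12.00 in Control, so that replicate 1 lay at the level of the lowest Control array. Its difference of -0.73 ± 0.18 was -1.02 without that array. The head genes ATP1, ATP2 and ATP3, for the alpha, beta and gamma subunits, differed by -0.44, -0.50 and -0.54, all overlapping with Control through IRAK1 replicate 1, and by -0.66, -0.79 and -0.78 without it. ATP1 lost its call without IRAK1 replicate 2, at -0.32, and ATP2 without Control replicate 1 or 2 or IRAK1 replicate 2 or 3, at -0.45, -0.49, -0.43 and -0.29. ATP17, for subunit f, lost it without Control replicate 3 or IRAK1 replicate 2, at -0.23 and -0.15. The median of the 13 genes was -0.65 without IRAK1 replicate 1. With the 6 arrays of these groups paired by replicate number, ATP1, ATP2, ATP7, ATP15 and ATP17 were not called, at limma adjusted p-values of 0.0515, 0.0630, 0.0580, 0.0524 and 0.108. With the same 6 arrays and no pairing, ATP3 and ATP4 were not called, at limma adjusted p-values of 0.0635 and 0.0558. Nor were ATP1, ATP2, ATP7 and ATP17 called there.

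**Figure D3:**
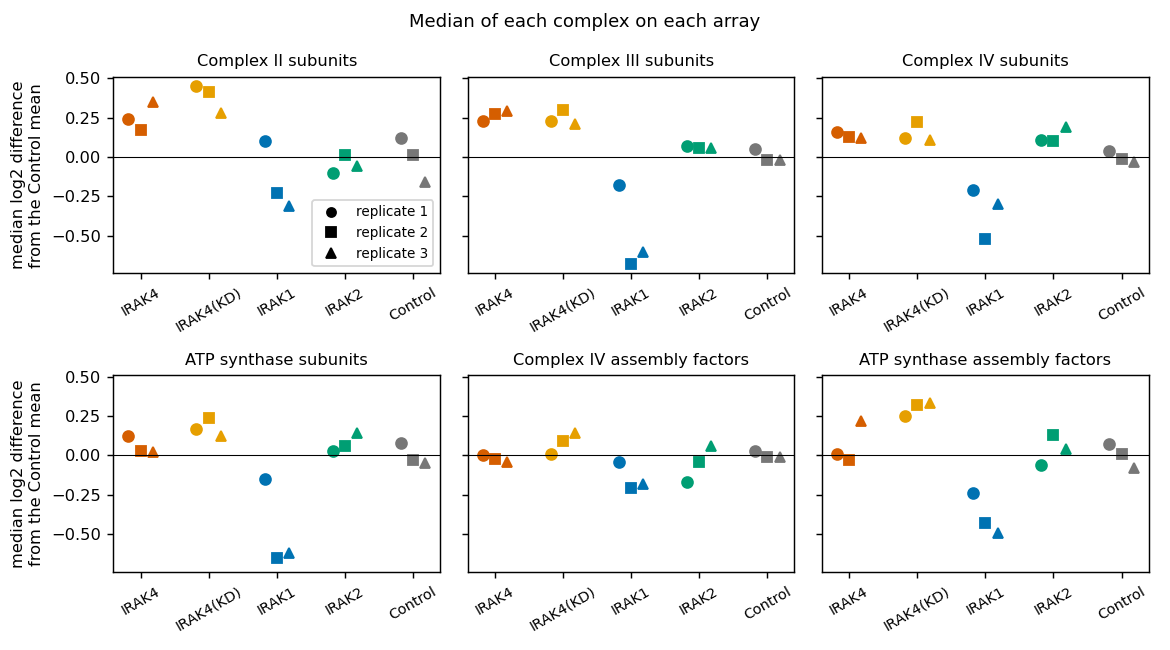
Each symbol is 1 array: the median, over the genes of a complex, of the log2 difference from the Control mean (y axis), for the 5 groups (x axis), with replicates 1, 2 and 3 as circle, square and triangle. In complex III and the ATP synthase subunits the IRAK1 arrays lie at -0.18, -0.68 and -0.60 and at -0.15, -0.65 and -0.62, below all arrays of the other groups.

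The assembly factors, which insert cofactors and build the complexes without staying in them, were less uniform in IRAK1 cells: of 20, 10 were called lower and 2 higher, with a median difference of -0.18. COX17 (YLL009C), the copper chaperone that supplies complex IV, had values of 9.38, 9.45 and 9.78 in IRAK1, against 11.04, 10.90 and 10.95 in Control. All IRAK1 arrays were over 1 unit lower, and the difference was -1.42 ± 0.10, or 2.68-fold (adjusted p = 3.54e-08, limma). ATP23 (YNR020C), a protease and chaperone for the Atp6 subunit, had values of 7.88, 7.88 and 8.10 in IRAK1, against 8.88, 8.84 and 8.80 in Control, a difference of -0.89 ± 0.10 (adjusted p = 3.83e-06, limma). COX10, which makes an intermediate of haem A, differed by -0.79 ± 0.09, and ATP11, the chaperone of the beta subunit, by -0.74 ± 0.13. The higher factors were SDH8 (YBR269C), an assembly factor of complex II, with 11.10, 10.99 and 10.88 in IRAK1, against 10.28, 10.35 and 10.22 in Control, and COX16, which acts in complex IV assembly. SDH8 differed by 0.71 ± 0.08 (adjusted p = 2.77e-06, limma) and COX16 by 0.36 ± 0.08 (adjusted p = 0.000960, limma). In neither gene did IRAK1 and Control arrays overlap. Without IRAK1 replicate 3, 4 assembly factors were called higher in place of 2. Among those called lower, SDH7 and COX14 were not called with the 6 arrays paired by replicate number, at limma adjusted p-values of 0.0518 and 0.0971. With those 6 arrays and no pairing, COX14 and ATP25 were not called, at limma adjusted p-values of 0.0857 and 0.0564.

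IRAK1 replicate 1 was nearer to Control than the other IRAK1 arrays in many of the 57 genes. Its value minus the mean of replicates 2 and 3 had a median of 0.21 over the 57 genes, against 0.05 over all genes. This offset exceeded 0.4 in 15 of the 57 genes, against 807 of all 5449 genes. By complex this median was 0.45 in the ATP synthase subunits, 0.37 in complex II subunits, 0.29 in complex III subunits and 0.17 in complex IV subunits. ATP5 at 0.89, ATP2 at 0.87, SDH1 at 0.82 and RIP1 at 0.78 had the highest offsets. COX5B at -0.52 had the lowest offset, so there too the array was closer to Control, whereas COX17 at -0.24 was further from it. The part of this array's state in the differences was not tested beyond leaving it out.

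**Figure D4:**
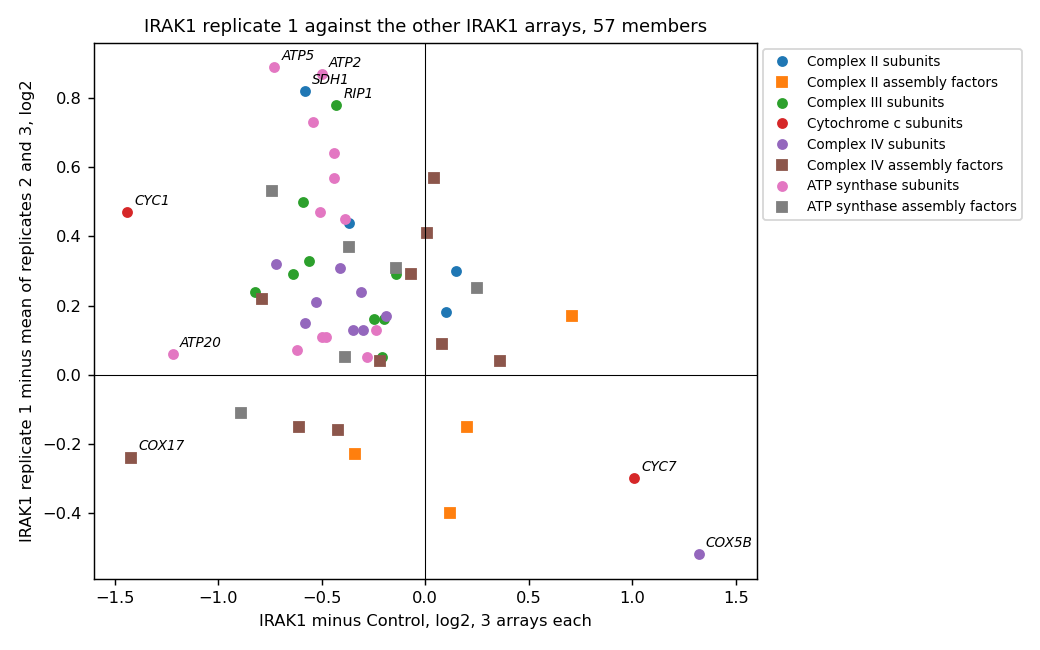
Each point is 1 of the 57 genes, coloured by complex (circles subunits, squares assembly factors): the log2 difference of IRAK1 from Control (x axis) and IRAK1 replicate 1 minus the mean of IRAK1 replicates 2 and 3, log2 (y axis). Most genes lie upper left, lower in IRAK1 than in Control with replicate 1 above its companions; CYC1, ATP20 and COX17 lie far left with offsets of 0.47, 0.06 and -0.24.

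Set against IRAK4 cells, which also expressed an IRAK kinase, IRAK1 cells had lower respiratory transcripts too. The IRAK1 arrays are those already compared with Control, so the result is not a separate repeat. Of the 57 genes, 43 were called lower and 3 higher, which is 75.4% and 5.26%, against 28.0% and 18.3% of all genes, and 42 of these 46 calls held when each array was left out in turn. The median difference was -0.51, against -0.08 over all genes, and arrays did not overlap in 47 of the 57 genes, or 82.5%, against 46.3% of all genes. Of the 37 subunit genes 33 were called lower and 0 higher, also 0 at an unadjusted limma p under 0.05. Those lower were 3 in complex II, all 9 in complex III, CYC1, all 9 in complex IV and 11 of 13 in the ATP synthase. QCR9 of complex III lost its call without IRAK4 replicate 1 or 2 or IRAK1 replicate 2 or 3, at -0.24, -0.24, -0.21 and -0.24, and after median centring or quantile normalization, at -0.24 and -0.22. The complex medians were -0.61, -0.76, -0.51 and -0.62 for the subunits of complexes II, III and IV and the ATP synthase. Without IRAK1 replicate 1, 45 genes were called lower and 3 higher, against 32.5% and 21.1% of all genes.

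CYC1 was the lowest of the 57 genes in this comparison too, with 11.10, 10.58 and 10.68 in IRAK1, against 11.98, 11.94 and 11.98 in IRAK4, and a difference of -1.18 ± 0.11 (adjusted p = 9.92e-07, limma). QCR2 followed with 11.41, 11.17 and 11.18 in IRAK1, against 12.30, 12.34 and 12.36 in IRAK4, a difference of -1.08 ± 0.08 (adjusted p = 6.79e-08, limma). COX17 differed by -1.08 ± 0.10 and ATP20 by -1.07 ± 0.09. None of these 4 genes had overlapping arrays. SDH1 differed by -0.86 ± 0.17, SDH2 by -0.67 ± 0.10 and SDH4 by -0.55 ± 0.12, while SDH3 was not called at -0.03 ± 0.09. COX5A differed by -0.88 ± 0.08 (adjusted p = 9.39e-07, limma). COX5B, at 7.97, 8.59 and 8.40 in IRAK1 against 8.73, 8.68 and 8.75 in IRAK4, differed by -0.40 ± 0.13 (adjusted p = 0.0187, limma), and was no longer called without IRAK1 replicate 1, at -0.23, or without IRAK4 replicate 3, at -0.38. CYC7 was not called, at -0.10 ± 0.15. The higher genes were the assembly factors COX23, which acts in copper homeostasis, at 0.36 ± 0.10, COX16 at 0.34 ± 0.08 and SDH8 at 0.24 ± 0.08. SDH8 lost its call without IRAK4 replicate 1, at 0.20.

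In IRAK4 cells the respiratory genes stood slightly above Control by median, and COX5B, CYC7 and SDH2 had the highest called differences. Of the 57 genes, 16 were called higher and 4 lower, or 28.1% and 7.02%, against 28.2% and 16.4% of all genes, so the share called higher was that of all genes. Median centring of the arrays gave a split of 12 higher and 8 lower, and quantile normalization one of 13 higher and 8 lower. Arrays of the groups did not overlap in 37 of the 57 genes, or 64.9%, against 61.7% of all genes. Without IRAK1 replicate 1, which enters this comparison only through the estimate of spread, it was 26 higher and 7 lower, against 34.1% and 21.8% of all genes. The median difference was 0.16, against 0.08 over all genes. Median differences were 0.23 in complex II, 0.26 in complex III, 0.12 in complex IV and 0.07 in ATP synthase subunits, the last of which was 0.00 after centring. Of the 20 calls, 15 held when each array was left out in turn.

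COX5B stood first, with 8.73, 8.68 and 8.75 in IRAK4, against 6.88, 7.00 and 7.12 in Control. The IRAK4 arrays were all over 1.5 units above the Control arrays, and the difference of 1.72 ± 0.13 was 3.30-fold (adjusted p = 1.57e-07, limma). CYC7 had 10.56, 10.56 and 10.64 in IRAK4, against 9.77, 9.51 and 9.14 in Control, with no overlap and a difference of 1.11 ± 0.15 (adjusted p = 4.59e-05, limma). SDH2 (YLL041C) had 12.29, 12.26 and 12.41 in IRAK4, against 11.72, 11.55 and 11.37 in Control, with no overlap and a difference of 0.77 ± 0.10 (adjusted p = 5.00e-05, limma). SDH5 (YOL071W), which attaches the flavin to Sdh1, differed by 0.69 ± 0.10. SDH1, SDH3 and SDH4 were not called, at 0.28 ± 0.17, 0.18 ± 0.09 and 0.18 ± 0.12. SDH1 and SDH3 became called without IRAK1 replicate 1, at the same differences. In complex III, COR1, CYT1, QCR2 and QCR10 were called higher, at 0.35, 0.32, 0.26 and 0.27, and in complex IV COX4, COX5A and COX9 joined COX5B, at 0.35, 0.30 and 0.38. QCR10 lost its call without Control replicate 2 or 3 or IRAK4 replicate 1 or 2, at 0.23, 0.23, 0.20 and 0.26, and under both other scalings, at 0.20 after median centring and 0.18 after quantile normalization. QCR2 lost it after median centring, at 0.19 (adjusted p = 0.0546, limma).

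The 4 genes called lower in IRAK4 than in Control were COX17, COX23, ATP19 and SDH7, while COX19, another copper chaperone of complex IV, was called higher at 0.28 ± 0.09. The COX19 call was lost without any of the Control arrays or IRAK4 replicate 3, at 0.26, 0.30, 0.28 and 0.21, and after median centring or quantile normalization, at 0.21 and 0.20. COX17 had 10.65, 10.58 and 10.61 in IRAK4, against 11.04, 10.90 and 10.95 in Control, a difference of -0.35 ± 0.10 (adjusted p = 0.00996, limma). COX23 had 7.47, 7.33 and 7.40 in IRAK4, against 7.76, 7.84 and 7.89 in Control, a difference of -0.43 ± 0.10 (adjusted p = 0.00303, limma). The groups overlapped in neither gene. ATP19, for subunit k of the ATP synthase, differed by -0.33 ± 0.09. SDH7, a complex II assembly factor, differed by -0.25 ± 0.08 and lost its call without Control replicate 1 or IRAK4 replicate 1, at -0.22 in each case. CYC1 had 11.98, 11.94 and 11.98 in IRAK4, all below the Control values of 12.37, 12.17 and 12.15, but was not called at -0.26 ± 0.11 (adjusted p = 0.0651, limma). It was called lower without IRAK1 replicate 1 (adjusted p = 0.00443, limma) and after median centring, at -0.33. Of the 20 assembly factors 6 were called higher and 3 lower, or 30% and 15%, close to the 28.2% and 16.4% of all genes, and those higher fell to 3 without Control replicate 2, Control replicate 3 or IRAK4 replicate 3.

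Cells with the catalytically inactive form had respiratory genes called only in the upward direction. In IRAK4(KD) against Control, 13 of the 57 genes were called higher and 0 lower, or 22.8% and 0%, against 11.7% and 6.00% of all genes, with a median difference of 0.21 against 0.07 over all genes. At an unadjusted limma p under 0.05 the counts were 27 higher and 0 lower. Differences were positive in 51 of the 57 genes, and arrays did not overlap in 34, or 59.6%, against 48.5% of all genes. These calls lay near the threshold: 2 of the 13, SDH2 and COX9, held when each array was left out in turn. Leaving out Control replicate 2 or 3, or IRAK4(KD) replicate 1, 2 or 3, left 3, 2, 4, 3 and 6 genes called higher, while leaving out IRAK1 replicate 1 gave 29 higher and 0 lower, against 22.2% and 11.8% of all genes. After median centring 6 were called, and after quantile normalization 5.

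SDH2 had 12.15, 12.07 and 11.93 in IRAK4(KD), against 11.72, 11.55 and 11.37 in Control, with no overlap and a difference of 0.51 ± 0.10 (adjusted p = 0.00570, limma). COX9 (YDL067C), a small subunit of complex IV, had 12.15, 12.25 and 12.06 in IRAK4(KD), against 11.74, 11.78 and 11.72 in Control, a difference of 0.41 ± 0.08 (adjusted p = 0.00272, limma) that also left the groups apart. CYC7 differed by 0.58 ± 0.15 with 1 of the Control arrays as high as the lowest IRAK4(KD) array, and ATP11 by 0.50 ± 0.13. SDH4 differed by 0.44 ± 0.12, CYC1 by 0.34 ± 0.11, COX5A by 0.27 ± 0.08 and COX5B by 0.41 ± 0.13. These calls were lost without Control replicate 3, at 0.41 for CYC7, 0.44 for ATP11, 0.36 for SDH4, 0.30 for CYC1, 0.28 for COX5A and 0.47 for COX5B, and each also without at least 1 other array. SDH1 and SDH3 were not called, at 0.32 ± 0.17 and 0.20 ± 0.09, and were called without IRAK1 replicate 1.

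The comparison of IRAK4 with IRAK4(KD) sets the active kinase against its catalytically inactive form. The array did not read the kinase transcripts, so a difference in their amount cannot be told apart from one in catalytic activity. Of the 57 genes, 6 were called higher and 11 lower, or 10.5% and 19.3%, against 19.7% and 15.3% of all genes, and the median difference was -0.03 against 0.00. Arrays did not overlap in 25 of the 57 genes, or 43.9%, against 52.4% of all genes. Without IRAK1 replicate 1 the counts were 9 higher and 12 lower, against 24.3% and 22.4% of all genes. Subunits of complexes II and III gave 0 calls, and at an unadjusted limma p under 0.05 they gave 1 higher and 1 lower gene, both in complex II. COX5B showed the widest gap, with 8.73, 8.68 and 8.75 in IRAK4, against 7.49, 7.30 and 7.44 in IRAK4(KD). All IRAK4 arrays were over 1 unit above the IRAK4(KD) arrays, and the difference was 1.31 ± 0.13 (adjusted p = 3.25e-06, limma). CYC1 lay at the other end, with 11.98, 11.94 and 11.98 in IRAK4, against 12.56, 12.58 and 12.57 in IRAK4(KD). These arrays stood apart too, and the difference was -0.60 ± 0.11 (adjusted p = 0.000744, limma). COX5A, by contrast, was not called at 0.03 ± 0.08.

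Other genes called higher in IRAK4 than in IRAK4(KD) were ATP10 at 0.59 ± 0.17, CYC7 at 0.54 ± 0.15 and SDH6 at 0.44 ± 0.13, with SDH5 and SDH8 at 0.43 and 0.28. ATP10 and SDH6 are assembly factors of the ATP synthase and of complex II. CYC7 lost its call without IRAK4(KD) replicate 3, at 0.40, ATP10 without that array or IRAK4 replicate 3, at 0.44 in both cases, or after quantile normalization, at 0.39, and SDH6 without IRAK4 replicate 2 or 3, at 0.41 and 0.39. The lower genes were led after CYC1 by the assembly genes ATP11 at -0.55 ± 0.13, COX14 at -0.48 ± 0.08 and ATP23 at -0.47 ± 0.10. COX14, which couples synthesis of Cox1 to its assembly, had 9.25, 9.22 and 9.40 in IRAK4, against 9.73, 9.72 and 9.87 in IRAK4(KD), with no overlap. COX17 differed by -0.43 ± 0.10 and COX23 by -0.42 ± 0.10. Of the ATP synthase subunits 4 were called lower, ATP15, ATP18, ATP19 and ATP20, at -0.22, -0.42, -0.36 and -0.26, and 2 of the 4 without IRAK4(KD) replicate 1 or 2. SDH1, SDH2, SDH3 and SDH4 were not called, at -0.04, 0.27, -0.03 and -0.26, though without IRAK1 replicate 1 SDH2 was called higher and SDH4 lower at the same differences.

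IRAK2 cells were the closest to Control by number of calls. Of the 57 genes, 7 were called higher and 1 lower, or 12.3% and 1.75%, against 5.82% and 3.38% of all genes, with a median difference of 0.07 against 0.01. Arrays did not overlap in 31 of the 57 genes, or 54.4%, against 42.8% of all genes. CYC7 had 10.32, 10.29 and 10.30 in IRAK2, against 9.77, 9.51 and 9.14 in Control. The groups were apart, the difference was 0.83 ± 0.15 (adjusted p = 0.00457, limma), and this was the 1 call of the 8 that held when each array was left out. COX17 had 11.40, 11.39 and 11.51 in IRAK2, against 11.04, 10.90 and 10.95 in Control, a difference of 0.47 ± 0.10 (adjusted p = 0.00852, limma) with no overlap. The call for COX17 was lost without IRAK2 replicate 3, at 0.44. COX14 and ATP18, for subunit i/j of the ATP synthase, each differed by 0.37, COX14 losing its call without Control replicate 2 or 3, at 0.35 and 0.33, and ATP18 without IRAK2 replicate 3, at 0.33. ATP10 was called lower at -0.58 ± 0.17 and not without Control replicate 1, 2 or 3 or IRAK2 replicate 2 or 3. The genes called higher numbered 3, 3 and 2 without Control replicate 2, Control replicate 3 and IRAK2 replicate 3, and 15, with 1 lower, without IRAK1 replicate 1, against 12.3% and 9.38% of all genes. SDH1 to SDH4 ranged from -0.08 to 0.12, COX5A stood at -0.04, COX5B at 0.32 and CYC1 at 0.22, none of them called. COX5B and CYC1 were called higher without IRAK1 replicate 1, at the same differences.

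Across the 5 groups the isoform genes gave the following order of means, on the log2 scale (± SD, n = 3 arrays). COX5B averaged 8.72 ± 0.04 in IRAK4, 8.32 ± 0.32 in IRAK1, 7.41 ± 0.10 in IRAK4(KD), 7.32 ± 0.10 in IRAK2 and 7.00 ± 0.12 in Control. IRAK4(KD) and IRAK2 overlapped in this order, and IRAK1 varied most. CYC7 averaged 10.59 ± 0.05 in IRAK4, 10.49 ± 0.17 in IRAK1, 10.30 ± 0.01 in IRAK2, 10.05 ± 0.26 in IRAK4(KD) and 9.47 ± 0.32 in Control. Neighbours in this order overlapped except IRAK2 and IRAK4(KD). IRAK4(KD) and Control met at a shared value of 9.77. The aerobic genes gave other orders: COX5A averaged 12.89 ± 0.11 in IRAK4, 12.86 ± 0.05 in IRAK4(KD), 12.56 ± 0.07 in IRAK2 and 12.01 ± 0.13 in IRAK1, against 12.59 ± 0.01 in Control. IRAK4 and IRAK4(KD) overlapped there, as did IRAK2 and Control. CYC1 averaged 12.57 ± 0.01 in IRAK4(KD), 12.45 ± 0.03 in IRAK2, 11.97 ± 0.02 in IRAK4 and 10.79 ± 0.28 in IRAK1, against 12.23 ± 0.12 in Control, with no overlap between neighbours. In IRAK1 cells both hypoxic forms were called higher and both aerobic forms lower, whereas in IRAK4 cells COX5A was higher along with COX5B. The comparisons with Control share the 3 Control arrays.

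**Figure D5:**
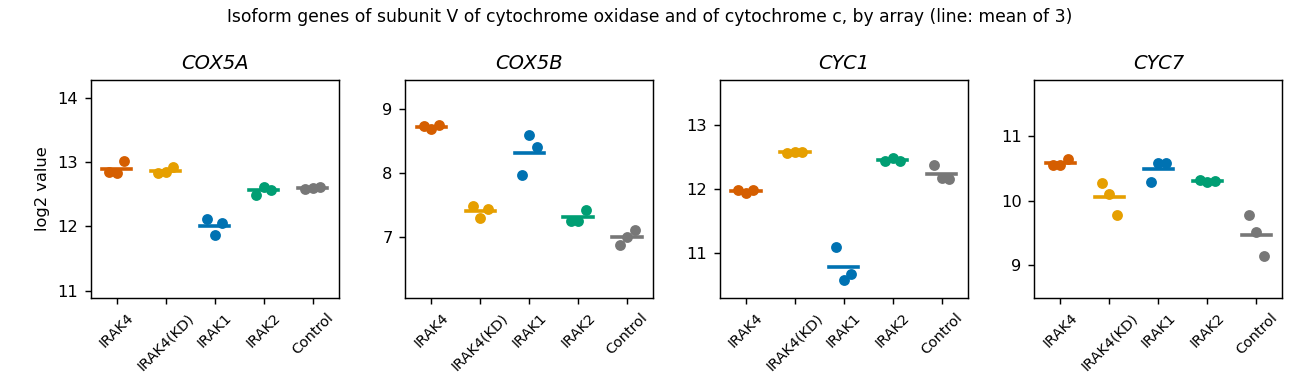
Each dot is 1 array and each line the mean of 3 arrays, on the log2 scale (y axis, the same span in every panel), for the aerobic and hypoxic genes of complex IV subunit V (COX5A, COX5B) and of cytochrome c (CYC1, CYC7) in 5 groups (x axis). COX5B is highest in IRAK4 at 8.68 to 8.75, and CYC1 is lowest in IRAK1 at 10.58 to 11.10; levels cannot be set against each other between panels.

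Genes around the chain were read in 8 lists, whose counts are set beside the share of all genes called in the same comparison: 30.6% higher and 28.2% lower in IRAK1, and 28.2% higher and 16.4% lower in IRAK4, both against Control. With 5 to 31 genes a list, a share near these says little about the list. HAP4 (YKL109W), the subunit that limits activity of the Hap2/3/4/5 activator, had 10.62, 9.93 and 9.96 in IRAK1, against 10.88, 10.87 and 10.75 in Control. All IRAK1 arrays were below Control, replicate 1 least so, and the difference was -0.67 ± 0.14 (adjusted p = 0.00100, limma), or -0.89 without that array. HAP4 was not called in IRAK4, IRAK4(KD) or IRAK2 against Control, at 0.24 ± 0.14, 0.29 ± 0.14 and 0.03 ± 0.14, nor in IRAK4 against IRAK4(KD), at -0.06 ± 0.14, and differed by -0.90 ± 0.14 in IRAK1 against IRAK4. Without IRAK1 replicate 1 it was called higher in IRAK4 and IRAK4(KD), at the same differences. HAP1, the haem-sensing activator of CYC1, differed by 0.74 ± 0.08 in IRAK1 against Control. Of the 5 activator genes, 1 was called higher and 2 lower in IRAK1 (2 higher without IRAK1 replicate 3), and 3 were called higher and 1 lower in IRAK4, led by HAP2 at 0.60 and HAP5 at 0.42. The lower gene in IRAK4 was not called without Control replicate 1 or 2 or IRAK4 replicate 1 or 2.

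Among the dehydrogenases that feed electrons into the chain, 4 of 7 were called higher and 2 lower in IRAK1 against Control, or 57.1% and 28.6%, against 30.6% and 28.2% of all genes. NDE2 (YDL085W), an external NADH dehydrogenase of the inner membrane, had 12.06, 11.76 and 11.57 in IRAK1, against 8.95, 9.38 and 9.22 in Control. It lay over 2 units above Control on every array, and the difference of 2.62 ± 0.14 was 6.13-fold (adjusted p = 4.99e-09, limma). Against Control the same gene differed by 0.54 ± 0.14 in IRAK4 cells, was lower in IRAK4(KD) cells at -1.17 ± 0.14 and was not called in IRAK2 cells, at -0.13 ± 0.14. CYB2, which passes electrons from lactate to cytochrome c, had 12.99, 11.45 and 11.48 in IRAK1, against 10.72, 10.74 and 10.53 in Control, and its difference of 1.31 ± 0.30 was 0.80 without IRAK1 replicate 1. The 2 lower dehydrogenases became 1 without Control replicate 1 or IRAK1 replicate 2 or 3. In IRAK4 2 of the 7 were called higher and 3 lower, or 28.6% and 42.9%, with CYB2 at -0.88 ± 0.30 and DLD1, a D-lactate dehydrogenase, at -0.59 ± 0.19, and those lower fell to 1 without Control replicate 1 or 2 or IRAK4 replicate 1 or 2. CYB2 and DLD1 lost their calls without those same arrays, at -0.86, -0.85, -0.76 and -0.81 for CYB2 and -0.57, -0.56, -0.55 and -0.49 for DLD1.

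Assembly genes outside the 57 went both ways in IRAK1 cells. Of 31 complex IV assembly and translation genes, 14 were called lower, 4 higher and the rest not called, or 45.2% lower and 12.9% higher against 28.2% and 30.6% of all genes, with a median difference of -0.22, and CMC1 and CMC2, small proteins needed for copper delivery to the enzyme, differed by -1.02 ± 0.12 and -0.96 ± 0.08. Of 13 measured complex III and cytochrome c assembly genes, 8 were called lower and 3 higher, or 61.5% and 23.1%, led by MZM1, which stabilises the Rieske protein, at -0.67 ± 0.09 and CBP6, which acts on cytochrome b, at -0.61 ± 0.11. The 8 became 7 without Control replicate 1 and 5 without Control replicate 2 or 3 or IRAK1 replicate 2 or 3, and the 3 became 1 without any of the Control arrays or IRAK1 replicate 2. Genes that work with the ATP synthase were mixed, with 4 of 14 called higher and 5 lower, or 28.6% and 35.7%, near the shares of all genes. STF2, which stabilises the enzyme's inhibitor, had 11.74, 11.66 and 11.61 in IRAK1, against 10.03, 9.90 and 9.80 in Control, a difference of 1.76 ± 0.09, and the ADP/ATP carrier gene AAC1 differed by 1.00 ± 0.13.

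Haem synthesis was also mixed in IRAK1 cells, with 3 of 8 genes called higher and 4 lower, or 37.5% and 50% against 30.6% and 28.2% of all genes. HEM3, for porphobilinogen deaminase, had 7.00, 8.29 and 8.20 in IRAK1, against 9.27, 9.27 and 9.25 in Control. Its difference of -1.43 ± 0.23 was -1.02 without IRAK1 replicate 1, the lowest of the 3 arrays here, while HEM14, for protoporphyrinogen oxidase, differed by 1.05 ± 0.08. Ubiquinone synthesis had 5 of 11 genes called higher and 1 lower in IRAK1, or 45.5% and 9.09%. In IRAK4 it had 9 of 11 called higher and 0 lower, or 81.8% higher against 28.2% of all genes, where the median difference was 0.37 and the higher genes numbered 6 to 10 when each array was left out. At an unadjusted limma p under 0.05, IRAK4 had 10 higher and 0 lower. COQ4, needed for the biosynthetic complex, had 9.85, 9.96 and 9.95 in IRAK4, against 8.98, 9.14 and 9.12 in Control, and differed by 0.84 ± 0.10 in IRAK4 and 1.10 ± 0.10 in IRAK1. COQ3, a methyltransferase, differed by 0.68 ± 0.12 and 0.62 ± 0.12 in the same comparisons. The lower gene in IRAK1 was not called without Control replicate 1 or 2 or IRAK1 replicate 3, and 2 were called lower without IRAK1 replicate 1. The list of genes known to be used at low oxygen shares HEM13 with haem synthesis and AAC3 with the ATP synthase partners. Of its 10 genes, 4 were called higher and 1 lower in IRAK1, and 4 higher and 0 lower in IRAK4. In IRAK4 an unadjusted limma p under 0.05 gave the same counts. Those called higher were 40.0% in each comparison, against 30.6% and 28.2% of all genes. TIR3, a cell wall mannoprotein gene, had 6.31, 8.78 and 8.46 in IRAK1, against 5.07, 5.40 and 5.34 in Control, and differed by 2.58 ± 0.42, or by 3.35 without IRAK1 replicate 1. HMG2, for an isoform of HMG-CoA reductase, differed by 0.73 ± 0.10 in IRAK1 and 0.64 ± 0.10 in IRAK4, and ROX1, the repressor of hypoxic genes, by 0.75 ± 0.18 in IRAK4. The lower gene of this list in IRAK1 was not called without Control replicate 1 or 2 or IRAK1 replicate 1, and in IRAK4 the count became 5 higher and 1 lower without that last array.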

How the data were processed

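The authors deposited log2 expression values of 15 arrays, made with GCRMA (whose steps include background correction and probe summary) per the submitters' processing notes, with no version given. Scanner files and detection calls were not used here, so low values carry no mark of absence, and the number of arrays limits precision. Of 5716 probe sets, 5498 were annotated to 1 gene and 218 were left out; where a gene had several, the highest mean over 15 arrays was kept. Group means were fitted to the 15 arrays with limma 3.58.1 in R 4.3.3 (lmFit, eBayes), with no low-value filter, two-sided tests and Benjamini-Hochberg adjustment over 5449 genes within each of 6 comparisons. The spread of a gene is shared by all arrays, so IRAK1 replicate 1 also enters comparisons without IRAK1. The fit was run on simulated data with independent values and the same spread per gene in every group. That setting cannot show how the fit handles the wider spread of the IRAK1 arrays. Figures used Python 3.11.15 and matplotlib 3.10.9.

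Members and the 8 gene lists were chosen with earlier results of these data known. The text names, for each comparison, up to 4 highest and 4 lowest called members, the isoform genes, SDH1 to SDH4, HAP4, and up to 2 called genes of each list with the widest difference from Control; other genes named were chosen after their values were seen.

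Same-numbered arrays deviated together in IRAK1 and Control (correlations over genes of 0.19, 0.10 and 0.35), so by the rule of a correlation over 0.1 in every pair those numbers were taken as pairs, from the data alone, since the labels do not say what a number stands for. In the other 5 comparisons at least 1 pair fell short. Alternatives covered a further scaling of the deposited GCRMA values, filter, probe set choice, eBayes settings, array weights, arrays in the fit, a 2-fold limit, the replicate number as a block and leaving out each array.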

Additional observations from a re-analysis of the deposited data

How the results depend on the processing

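No called difference changed sign. Class medians stayed within the spread between replicates in 633 recalculations and moved beyond it in 31. With the replicate number as a block (replicate block), genes called higher and lower numbered 16 and 4 for IRAK4, 11 and 0 for IRAK4(KD), 4 and 41 for IRAK1 and 7 and 1 for IRAK2 against Control, 6 and 11 in IRAK4 against IRAK4(KD) and 3 and 43 in IRAK1 against IRAK4, so the block moved no count by over 1.5 times. For IRAK1 against Control, whose numbers were taken as pairs, the 6 arrays alone gave 4 higher and 30 lower with the block, an alternative chosen after seeing the data, and 4 and 26 without it.

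Other counts and medians moved as follows, and the causes were not tested. In IRAK4 against Control, 8 genes were lower with median centring, quantile normalization or array weights and 31 higher with weights. Complex IV subunits then stood at 0.05 (centring) and 0.17 (weights), ATP synthase subunits at 0.00 (centring) and 0.14 (weights), complex IV assembly factors at -0.08 (centring) and -0.10 (quantile), and complex III at 0.18 (quantile). In IRAK4(KD) against Control the higher genes numbered 6 (centring), 5 (quantile), 34 with 1 lower (weights) and 26 (6 arrays), with complex III at 0.20 (centring) and 0.15 (quantile) and complex IV at 0.06 (centring), 0.03 (quantile) and 0.17 (weights). In IRAK1 against Control complex III stood at -0.66 (weights). In IRAK2 against Control the counts were 0 lower (trend and robust eBayes), 25 higher and 6 lower (weights) and 18 higher (6 arrays), with complex IV at 0.16 (weights). In IRAK4 against IRAK4(KD), 11 were higher (weights) and complex IV stood at 0.08 (quantile), and in IRAK1 against IRAK4, 0 were higher (6 arrays) and complex IV assembly factors stood at -0.30 (weights). A 2-fold limit left 2 higher and 0 lower for IRAK4, 0 higher for IRAK4(KD), 2 and 3 for IRAK1, 0 and 0 for IRAK2, 1 and 0 in IRAK4 against IRAK4(KD) and 0 and 4 in IRAK1 against IRAK4.

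Leaving out each array in turn gave 12 to 26 higher, 3 to 7 lower and a complex IV median of 0.10 to 0.17 in IRAK4. It gave 2 to 29 higher in IRAK4(KD), with medians of 0.19 to 0.27 in complex III, 0.08 to 0.15 in complex IV and 0.23 to 0.34 in ATP synthase assembly factors. In IRAK1 the medians ran from -0.67 to -0.28 in complex III and from -0.40 to -0.25 in complex IV. In IRAK2 it gave 2 to 15 higher and 0 to 1 lower, with medians of -0.13 to 0.02 in complex II, 0.02 to 0.13 in complex III and 0.07 to 0.15 in complex IV. In IRAK1 against IRAK4 the medians ran from -0.67 to -0.45 in ATP synthase assembly factors and from -0.33 to -0.15 in complex IV assembly factors. Signal over background cannot be judged from these values, since they carry no detection calls.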

Other observations

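The lists of related genes also gave calls in IRAK4(KD) and IRAK2 cells, some of which held when each array was left out and some of which did not. In IRAK4(KD) against Control, where 11.7% of all genes were called higher and 6.00% lower, the activator genes HAP1 and HAP3 were called higher, at 0.35 ± 0.08 and 0.59 ± 0.12, and both calls held when each array was left out. HAP3, a DNA-binding subunit of the Hap2/3/4/5 activator, differed by -0.38 ± 0.12 in IRAK4 and -0.66 ± 0.12 in IRAK1 against Control, and by -0.97 ± 0.12 in IRAK4 against IRAK4(KD) (adjusted p = 4.05e-05, limma). The HAP3 call in IRAK4 against Control was lost without Control replicate 1 or 2 or IRAK4 replicate 1 or 2. Of 8 haem synthesis genes, HEM13 and HEM15 were called higher in IRAK4(KD), at 0.63 and 0.53, and 2 were called without each array of these groups as well. The 31 complex IV assembly genes had 5 called higher in IRAK4(KD), which became 0 without Control replicate 2 or 3 or IRAK4(KD) replicate 1 or 2, 2 without IRAK4(KD) replicate 3 and 9 without IRAK1 replicate 1.

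In IRAK2 against Control, the electron donors, activators, haem synthesis and ubiquinone synthesis genes gave 0 calls in limma, and at an unadjusted p under 0.05 they gave 1 higher and 1 lower, 1 higher, 1 lower and 1 lower gene. Complex IV assembly had 5 of 31 genes called higher and 1 lower, with CMC2 at 0.53 ± 0.08 (adjusted p = 0.000984, limma). The 5 became 3 without Control replicate 2 or 3 or IRAK2 replicate 2 or 3, and 10 without IRAK1 replicate 1. The gene called lower was PET122, a translational activator of COX3, at -0.67 ± 0.12, and its call and that of CMC2 held when each array was left out. Of all genes, 5.82% were called higher and 3.38% lower in this comparison.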
